A study of Gallus gallus with 2 samples.

Results

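The coreceptor genes CD4 and CD8A, the T cell receptor chain genes CD3D, CD3E and CD247, and the costimulatory receptor gene CD28 were followed across the nuclei of chicken (Gallus gallus) thymus. These 6 genes were taken by symbol from the 28951 genes listed in the data, and each symbol matched 1 gene. Thymus of female chickens at 5 weeks of age was flash frozen, and its nuclei were profiled by droplet RNA sequencing, in which each captured transcript is counted once by its unique molecular identifier (UMI). There were 2 libraries, of the same tissue, sex and age, so no treatment or genotype was compared, and the comparisons are between kinds of nuclei within the libraries. No strain is given, and nothing in the labels says that the libraries came from different birds, so a p-value here reflects only how the libraries spread, which may be technical. The labels of both libraries name the same pair of kit versions and of sequencers, without saying which was used for which library.

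In the thymus, immature T cells pass from a double negative (DN) stage without coreceptors to a double positive (DP) stage with both CD4 and CD8, and then keep only one of them as single positive (SP) cells; γδ T cells follow a separate path. CD4 and CD8 bind MHC class II and class I molecules beside the T cell receptor and bring the kinase LCK to it, and the CD3 chains and the CD247 (zeta) chain carry the tyrosine motifs that pass the receptor's signal into the cell. CD28 binds ligands of the B7 family and gives a second signal beside that of the receptor.

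Of the 10100 nuclei analysed, 4861 in replicate 1 and 5239 in replicate 2, 9569 were of the T lineage. Replicate 2 was deeper, with a median of 827 UMIs per nucleus against 660 in replicate 1, and 10 barcodes of analysed nuclei occurred in both libraries. The T-lineage nuclei formed 11 clusters, and the 6 genes were used neither to form nor to name any cluster. The DP-like nuclei, 1857 in number, served as the common comparison. Their leading genes included RAG1 and RAG2, which cut the antigen receptor genes and belong to the DP list. Of that list 4 of 9 detected genes were past the fold used for naming. This fold was 2 for stage lists, over the other T-lineage clusters. For lists of classes other than the T lineage it was 4, over all other clusters. The γδ-like nuclei (972) had SOX13 and BLK among their leading genes, and 3 of 7 detected genes of the γδ list past that fold. The CD4 SP-like nuclei (344) were led by SMAD7 and included CD40LG among their leading genes. Nuclei with genes of recent receptor signalling formed a HIVEP3 EGR3 signalled-like group (1537) and a small NR4A3 SAMD11 signalled-like group (100). In these groups 5 of 7 and 6 of 7 detected genes of the receptor signalled list were past the fold. The NR4A3 SAMD11 group also had 3 of 10 of the CD4 SP list, 3 of 9 of the CD8 SP list and 3 of 7 of the γδ list. The others are called by leading genes. The cycling cluster (1648) had mitotic genes among its leading genes, such as ASPM and CENPF. The CLGN HMCN1 cluster (929) and the SLA SAT1 cluster (1042) matched no stage list. SLA SAT1 nuclei had the lowest median depth of the T-lineage clusters, 414 and 496 UMIs. They shared SAT1, TTC14 and KCTD12 with the leading genes of DP-like nuclei. The GNLY SH3RF3 cluster (780) had 6 of 9 detected genes of the mature SP list past the fold used for naming. It also had 6 of 10 of the CD4 SP list and 4 of 9 of the CD8 SP list, and 3 of 8 of the natural killer and innate lymphoid list at the fold for classes. The CACNA1C AKR1D1 cluster (336), which was cycling, had 3 of 12 of the early DN list. Its leading genes included ERG, a gene of the endothelial list, of which 1 of 6 detected genes was past the fold for classes. The CD4 SP-like nuclei had 3 of 10 of the CD4 SP list, 2 of 9 of the mature SP list and 0 of 9 of the CD8 SP list, so the group with that name had fewer genes of the CD4 SP list than the GNLY SH3RF3 cluster. A last cluster of 24 nuclei was too small to test.

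The files identify the genes as ENSGALG00010023331 (CD4), ENSGALG00010016963 (CD8A), ENSGALG00010023743 (CD3D), ENSGALG00010023715 (CD3E), ENSGALG00010008142 (CD247) and ENSGALG00010021995 (CD28). They lie on chromosomes 1 (CD4 and CD247), 4 (CD8A), 7 (CD28) and 24 (CD3E and CD3D) of the GRCg7b assembly. CD3E, at positions 5503915 to 5511817, and CD3D, at 5513856 to 5516395, are neighbours separated by 2038 bases, and CD3E overlaps MPZL2. Reads from overlapping genes may be hard to assign, and MPZL2 itself held 2 and 4 UMIs in thymic epithelial-like nuclei and 0 and 10 in all T-lineage nuclei. CD8A, at 85169526 to 85186710 of chromosome 4, overlaps 2 uncharacterised genes, so part of its count is uncertain in the same way. CD4 spans 77157345 to 77168880 and CD247 91785690 to 91832118 of chromosome 1, CD28 spans 13056882 to 13069542 of chromosome 7, and these and CD3D overlap no other gene in the RefSeq annotation.

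All 6 genes were higher in T-lineage nuclei than in the other classes, which were thymic epithelial-like, B-like, macrophage-like and erythroid-like nuclei. T-lineage nuclei made up 94.7% of the nuclei and held between 98.0% (CD3D) and 99.5% (CD247) of the UMIs of each gene. Levels are given as CPM, the UMIs of a gene summed over the nuclei of a class and library and scaled to the same total for every such sum. CD247 was at 1017 and 1126 CPM in T-lineage nuclei of replicates 1 and 2, against a mean of 172.9 and 143.1 CPM over the other classes, a ratio of 6.78. CD8A was at 222.4 and 261.2 CPM in T-lineage nuclei, against 11.8 and 50.1 CPM, a ratio of 7.81. CD3E averaged 287.8 ± 75.0 CPM in the T lineage, against 43.4 ± 4.40 CPM in the other classes (SD, n = 2 libraries). CD28 averaged 592.8 ± 114.6 CPM in the T lineage, against 110.7 ± 10.3 CPM in the other classes, and CD4 362.2 ± 70.4 CPM, against 89.1 ± 46.0 CPM. The gap was narrowest for CD3D, at 217.1 ± 36.1 CPM in the T lineage, against 90.3 ± 37.1 CPM in the other classes, a ratio of 2.40. For CD247 and CD3E most of the mean over the other classes came from 57 erythroid-like nuclei in both libraries. For CD4, CD8A and CD28 this held in replicate 2 only, where these nuclei had 486.5, 200.3 and 400.7 CPM. Without these nuclei the ratio of the T lineage to the other classes was 58.2 for CD247, 57.5 for CD3E, 30.7 for CD8A, 14.2 for CD4, 10.5 for CD28 and 2.90 for CD3D, over few UMIs in the other classes. In none of the genes did the T-lineage values overlap those of the other classes taken as a mean.

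The test set the T lineage against the unweighted mean of the other classes on the log scale, so it did not test the CPM ratios above. The log2 fold change by this measure was 7.88 for CD247, 6.93 for CD3E, 6.80 for CD28, 6.59 for CD8A, 4.85 for CD4 and 3.54 for CD3D. These values rest in part on classes with 0 UMIs. The names of the matrices refer to a correction that subtracts free RNA nucleus by nucleus, and its part in these counts of 0 was not tested. By edgeR's quasi-likelihood test, adjusted over all genes tested, the adjusted p was 1.97e-05 for CD247, 6.17e-05 for CD28 and 1.11e-04 for CD3E. It was 7.96e-04 for CD4, 0.00121 for CD8A and 0.00187 for CD3D. All 6 passed the filter on low counts and all 6 were called higher, beside 15% of the 2462 genes tested. A gene that passes such a filter through the T lineage alone has to differ, so the count carries no further weight. With DESeq2 the adjusted p of CD8A was 0.0681, which missed the threshold of 0.05, and in the other tested alternatives it lay between 4.49e-16 and 0.00314.

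The other classes were not alike. Thymic epithelial-like nuclei, 165 in number, held 0 UMIs of every one of the 6 genes in both libraries although they were the deepest nuclei, with medians of 2428 and 3566 UMIs. These are counts after the correction for free RNA that the matrices are named for, whose part in them was not tested. B-like nuclei held 22 UMIs of CD3D and 22 of CD28 and between 2 and 7 of each of the other genes, and 4 of the 14 detected T-lineage markers were past the fold used for naming in them. Macrophage-like nuclei held 5 UMIs of CD4, all in replicate 1, and 6 of CD3D, and 0 of the other genes. Erythroid-like nuclei held between 7 and 28 UMIs of each gene, and in these 57 nuclei 12 of the 14 detected T-lineage markers were past that fold. For T-lineage markers the fold was 2, over the other clusters outside the T lineage. These marker counts therefore do not set B-like or erythroid-like nuclei against T-lineage nuclei. The part of T-lineage RNA in these values was not tested. Without the erythroid-like nuclei, an alternative added after seeing the data, all 6 genes were still called higher.

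Within the T lineage the 6 genes were tested in 9 groups against DP-like nuclei. Of the 54 values, 37 were lower than in DP-like nuclei, 0 were higher and 17 were not called, by edgeR's test adjusted over 6945 genes in each comparison. At an unadjusted p under 0.05 there were also 0 higher, and DESeq2 called 0 higher and 35 lower. CD4, CD8A and CD247 were lower in 8 of the 9 groups, CD3E in 6, CD28 in 4 and CD3D in 3. The share of all tested genes called lower was 8.67% for the cycling cluster, 12.8% for the CACNA1C AKR1D1 cluster and 6.13% for the CLGN HMCN1 cluster, in each of which all 6 genes were lower. It was 8.16% for the HIVEP3 EGR3 and 8.97% for the NR4A3 SAMD11 signalled-like group, 9.43% for γδ-like nuclei and 10.7% for the GNLY SH3RF3 cluster, with 4 of the 6 genes lower in each, and 9.09% for CD4 SP-like nuclei, with 3 lower. The share of all genes called higher was 18% for the cycling cluster, 20.4% for the CACNA1C AKR1D1 cluster, 11.5% for the CLGN HMCN1 cluster, 14.0% and 11.4% for the HIVEP3 EGR3 and NR4A3 SAMD11 signalled-like groups, 20.1% for γδ-like nuclei, 18.2% for the GNLY SH3RF3 cluster and 14.8% for CD4 SP-like nuclei. In the SLA SAT1 cluster 0 of the 6 genes were called, beside 0.0% of all genes lower and 0.0288% higher; 3 had an unadjusted p under 0.05, all lower, and DESeq2 called CD247. Because every comparison shares the DP-like nuclei, the groups' values are given side by side and not as independent repeats.

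**Figure D1:**
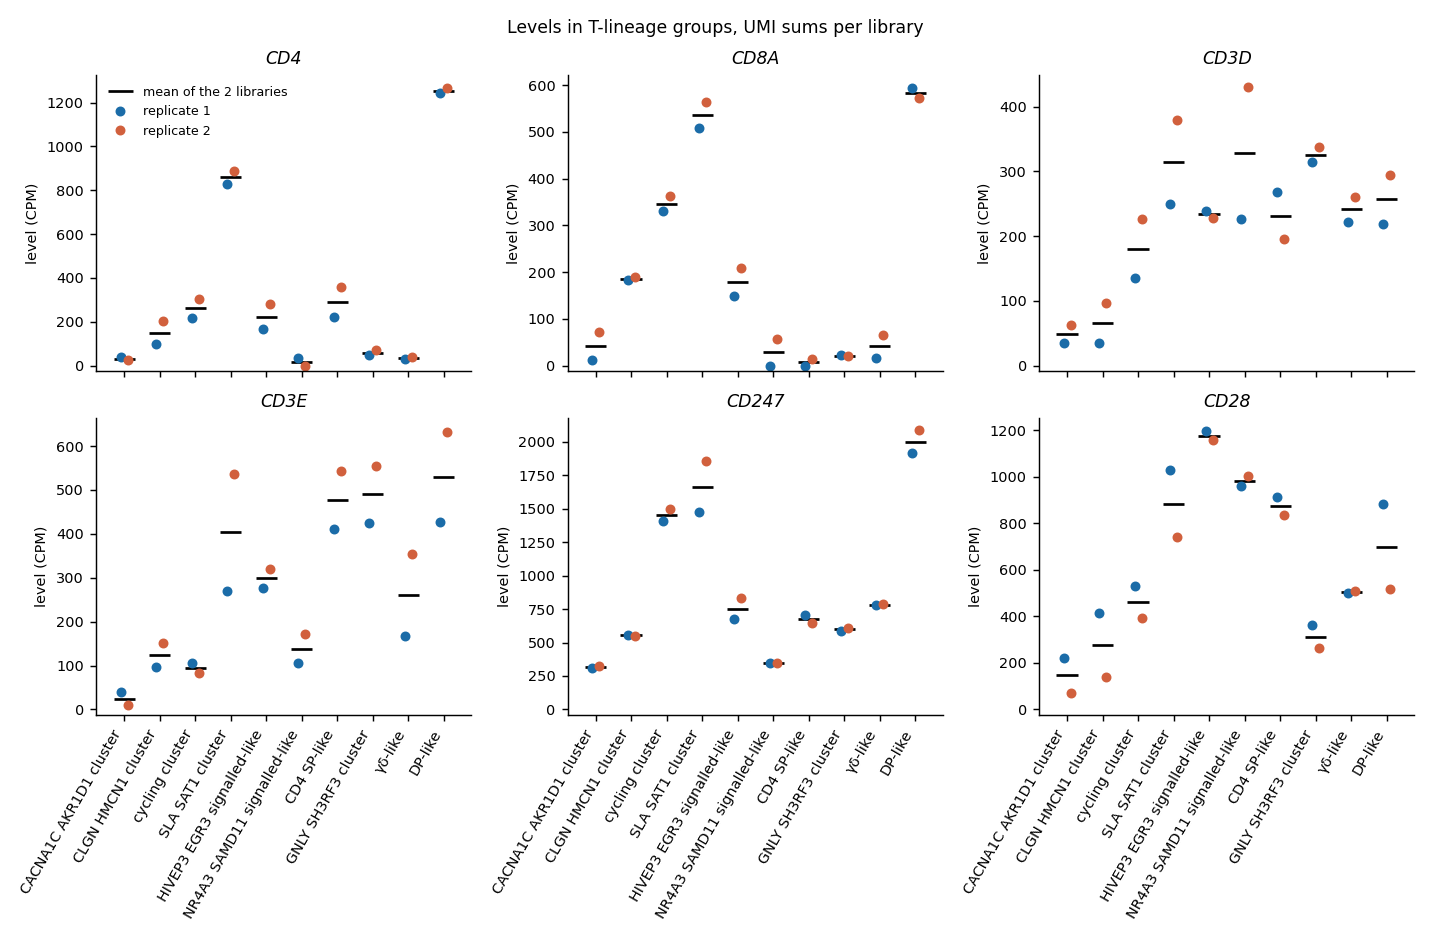
Levels of the 6 genes in 10 T-lineage groups, in CPM on the vertical axes; each point is the UMI sum of 1 library and the bar is the mean of the 2 libraries. CD4, CD8A and CD247 stand highest in DP-like nuclei at the right, and CD28 in the HIVEP3 EGR3 signalled-like group at a mean of 1175 CPM. Outside the CLGN HMCN1 and CACNA1C AKR1D1 clusters the means of CD3D lie between 181 and 328 CPM. Its single libraries there run from 135.2 CPM (cycling cluster, replicate 1) to 429.7 CPM (NR4A3 SAMD11 signalled-like group, replicate 2).

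CD4 was highest in DP-like nuclei and next in the SLA SAT1 cluster. It was at 829.9 and 889.4 CPM in the SLA SAT1 cluster, against 1244.5 and 1264.5 CPM in DP-like nuclei, and the libraries of these groups did not overlap, but the adjusted p was 0.198. CD4 was called lower in this cluster with no filter on low counts (adjusted p = 0.0279) and with UMIs split at random between clustering and testing (7.17e-04, log2 fold change −1.21), and in the other tested alternatives the adjusted p was 0.184 or more. With split UMIs CD3E and CD247 were also called lower there (adjusted p of 0.00119 and 0.0217). Of all genes in this cluster, 75 of 5201 were then called lower and 252 higher, against 0 and 2 of 6945 in the main test. With no filter 13 of 19563 were called lower. About 50% of the T-lineage CD4 UMIs, 51.0% in replicate 1 and 49.1% in replicate 2, lay in DP-like nuclei, which were 17.0% and 21.6% of T-lineage nuclei. CD4 SP-like nuclei held 222.7 and 358.7 CPM, 2.37 ± 0.24 lower than DP-like nuclei on the log2 scale (± SE; adjusted p = 6.70e-07). Their range overlapped those of the cycling cluster (216.9 and 305.3 CPM) and the HIVEP3 EGR3 signalled-like group (165.1 and 279.5 CPM), and lay above that of the CLGN HMCN1 cluster (97.4 and 201.7 CPM). Within each library CD4 SP-like nuclei were the highest of these 4 groups, and the differences between them were not tested.

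CD4 was lowest in 4 groups. It was at 48.9 and 69.8 CPM in the GNLY SH3RF3 cluster (log2 fold change −4.75 ± 0.27, adjusted p = 3.22e-10) and at 29.8 and 39.6 CPM in γδ-like nuclei (−5.44 ± 0.29, adjusted p = 2.93e-10). The CACNA1C AKR1D1 cluster held 15 CD4 UMIs in both libraries together, 39.96 and 23.7 CPM. The NR4A3 SAMD11 signalled-like group held 2 UMIs in replicate 1 and 0 in replicate 2, so its fold change is not given.

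CD8A was also highest in DP-like nuclei, at 592.9 and 571.4 CPM, and its value in the SLA SAT1 cluster, 509.1 and 563.8 CPM, was close below (log2 fold change −0.33 ± 0.31, adjusted p = 0.937). The cycling cluster came next at 330.4 and 362.7 CPM, 0.98 ± 0.30 lower than DP-like nuclei on the log2 scale (adjusted p = 0.0186), a call that 4 alternatives did not keep, with adjusted p between 0.0646 and 0.341 in them. CD8A was at 182.3 and 190.5 CPM in the CLGN HMCN1 cluster and at 148.6 and 209.6 CPM in the HIVEP3 EGR3 signalled-like group, whose ranges overlapped. Both were called lower than DP-like nuclei (adjusted p of 5.11e-04 and 1.53e-04), but for the CLGN HMCN1 cluster the adjusted p was 0.0521 by DESeq2 and 0.00760 or less in the other tested alternatives. In CD4 SP-like nuclei CD8A had 0 and 4 UMIs, 0.0 and 13.9 CPM (adjusted p = 2.15e-07 against DP-like nuclei). The NR4A3 SAMD11 signalled-like group had the same 0 and 4 UMIs, 0.0 and 57.3 CPM over fewer nuclei, so the order of these groups rests on counts near the floor. The GNLY SH3RF3 cluster had 9 and 10 UMIs, 23.2 and 19.96 CPM, below DP-like nuclei by 5.11 ± 0.44 on the log2 scale (adjusted p = 6.19e-08). Neither coreceptor was high in the cluster with most genes of the mature SP list.

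The balance of the coreceptors differed between groups. CD4 made up 39.6% and 45.7% of the CD4 and CD8A UMIs in the cycling cluster, 34.8% and 51.4% in the CLGN HMCN1 cluster and 52.6% and 57.1% in the HIVEP3 EGR3 signalled-like group, against 67.7% and 68.9% in DP-like nuclei. In CD4 SP-like nuclei CD8A had no UMI in replicate 1, and CD4 made up 96.3% in replicate 2. None of the first 3 groups overlapped DP-like nuclei in this share, and no test was made of it. The fold changes of the cycling cluster over DP-like nuclei were −2.52 ± 0.22 for CD4 and −0.98 ± 0.30 for CD8A on the log2 scale.

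**Figure D2:**
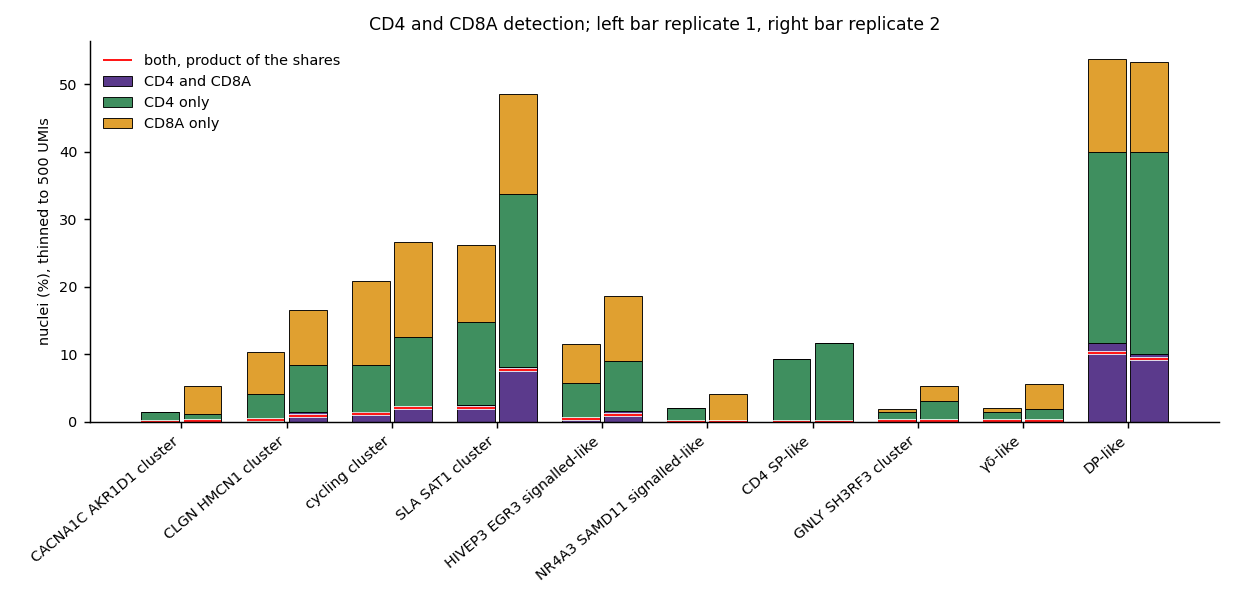
Percent of nuclei of each T-lineage group with a UMI of CD4 only, CD8A only or both, after every nucleus was thinned to 500 UMIs, for replicate 1 (left bar) and replicate 2 (right bar); the red line marks the share with both that the product of the single shares gives. DP-like nuclei at the right have both in 11.7% and 9.95%, near the line, and CD4 SP-like nuclei have CD4 without CD8A.

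Detection in single nuclei was compared after each nucleus was thinned to 500 UMIs, which left out 373 and 279 of the DP-like nuclei as too shallow. CD4 was detected in 39.9% (exact 95% interval 35.1 to 44.8) and 39.9% (36.5 to 43.4) of DP-like nuclei, and CD8A in 25.5% (21.4 to 30.1) and 23.3% (20.4 to 26.4); the intervals cover counting error only. Unthinned, CD4 was detected in 38.4% and 52.7% and CD8A in 27.7% and 30.5%. In B-like nuclei, thinned the same way, CD4 was found in 1 of 54 and 0 of 52 and CD8A in 2 of 54 and 0 of 52. In thymic epithelial-like nuclei both were found in 0 of 76 and 0 of 89, which by the limit of 3 counts allows up to 3.95% and 3.37% of nuclei with a UMI at this depth; such limits do not bound the nuclei that express the gene.

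Both coreceptors were found together in 48 of 411 DP-like nuclei in replicate 1 and in 79 of 794 in replicate 2, shares of 11.7% (8.74 to 15.2) and 9.95% (7.96 to 12.2). The product of the single shares gave 41.9 and 73.9 nuclei, and the odds ratios were 1.38 and 1.16. Unthinned, 10.7% and 18.4% of DP-like nuclei held both, with odds ratios of 1.02 and 1.55. Across all T-lineage nuclei the odds ratios were larger, 3.05 and 2.17, with 64 nuclei against a product of 28.3 in replicate 1 and 136 against 81.3 in replicate 2. Such pooled values mix DP-like nuclei with groups where both genes were rare. In γδ-like nuclei CD4 was found in 1.47% and 1.83% and CD8A in 0.49% and 3.89%. The part of this mixing was not tested. In the cycling cluster 11 and 15 nuclei held both, against 9.17 and 14.9, with odds ratios of 1.31 and 1.03. In CD4 SP-like nuclei, 0 of 152 and 0 of 190 held a CD8A UMI after thinning, which by the limit of 3 counts allows up to 1.97% and 1.58% of nuclei with a UMI at this depth, while CD4 was found in 9.21% and 11.6%. Unthinned, 0 of 154 and 3 of 190 held a CD8A UMI.

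Of the receptor chains, CD247 was highest in DP-like nuclei. It was at 1476 and 1857 CPM in the SLA SAT1 cluster and at 1408 and 1500 CPM in the cycling cluster, against 1916 and 2089 CPM in DP-like nuclei. The cycling cluster was lower by 0.69 ± 0.12 on the log2 scale (adjusted p = 2.20e-04), and for the SLA SAT1 cluster, which did not overlap DP-like nuclei but did overlap the cycling cluster, the adjusted p was 0.157. All other groups lay below 835 CPM in both libraries, less than in the cycling cluster. CD247 was at 781.4 and 784.8 CPM in γδ-like nuclei, at 672.6 and 834.7 CPM in the HIVEP3 EGR3 signalled-like group and at 702.4 and 647.7 CPM in CD4 SP-like nuclei. The GNLY SH3RF3 cluster had 587.2 and 608.6 CPM, lower than DP-like nuclei by 2.08 ± 0.13 on the log2 scale (adjusted p = 5.04e-10). The lowest level was that of the CACNA1C AKR1D1 cluster, 308.3 and 322.6 CPM, lower by 2.95 ± 0.14 (adjusted p = 2.31e-11), so CD247 was detected there as well, in 8.51% and 11.98% of thinned nuclei.

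CD3E had another pattern. It was at 424.9 and 554.8 CPM in the GNLY SH3RF3 cluster and at 411.2 and 543.3 CPM in CD4 SP-like nuclei, against 426.1 and 632.2 CPM in DP-like nuclei, all overlapping (adjusted p of 0.215 and 0.320). It was lower in the cycling cluster, at 105.9 and 83.4 CPM (log2 fold change −2.68 ± 0.28, adjusted p = 9.51e-07), where CD247 was lower by 0.69 on that scale. In the CACNA1C AKR1D1 cluster only 7 and 3 UMIs of CD3E were counted, 39.96 and 8.88 CPM (−5.04 ± 0.44, adjusted p = 7.08e-08). In between came the HIVEP3 EGR3 signalled-like group at 276.5 and 321.0 CPM (−1.10 ± 0.26, adjusted p = 0.00452, but 0.0605 at clustering resolution 0.5 and 0.0421 or less in the other tested alternatives) and γδ-like nuclei at 167.3 and 354.7 CPM (−1.29 ± 0.26, adjusted p = 9.67e-04). From rank 1 to rank 8 each group's libraries overlapped those of the next in the order of CD3E levels. The cycling cluster, at rank 9, did not overlap the CACNA1C AKR1D1 cluster, the last.

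CD3D was called lower in the fewest groups. It was lower than in DP-like nuclei, which had 218.7 and 295.0 CPM, in 3 groups. The CLGN HMCN1 cluster had 34.6 and 96.4 CPM (log2 fold change −2.13 ± 0.31, adjusted p = 8.39e-05), the CACNA1C AKR1D1 cluster 34.3 and 62.2 CPM (−2.63 ± 0.36, adjusted p = 1.38e-05) and the cycling cluster 135.2 and 226.3 CPM (−0.75 ± 0.26, adjusted p = 0.0377). The call in the cycling cluster was not kept by 7 alternatives, with adjusted p between 0.0536 and 0.141, and its libraries overlapped those of DP-like nuclei. In the 6 other groups CD3D averaged 232 to 328 CPM, each overlapping the next in the order of levels, with adjusted p of 0.294 or more. B-like nuclei had 110.4 and 214.0 CPM of CD3D, and after thinning it was found in 8.76% and 10.1% of DP-like nuclei against 3 of 54 and 5 of 52 B-like nuclei, so the share of nuclei with CD3D was not distinguishable from that in B-like nuclei at this depth. In epithelial-like nuclei it was found in 0 of 76 and 0 of 89.

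**Figure D3:**
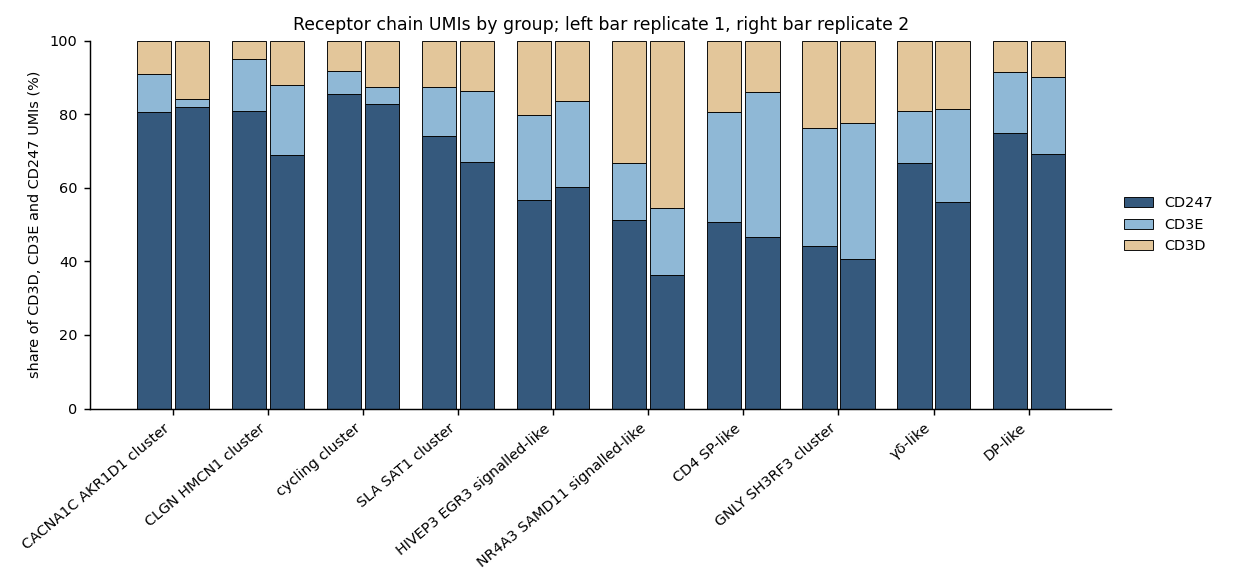
Share of the summed UMIs of CD247, CD3E and CD3D that each gene took in 10 T-lineage groups, in percent, for replicate 1 (left bar) and replicate 2 (right bar). CD247 takes 44.3% and 40.6% in the GNLY SH3RF3 cluster and 85.4% and 82.9% in the cycling cluster, with DP-like nuclei between them at 74.8% and 69.3%.

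The mix of the 3 receptor chains differed between groups. CD247 took 44.3% and 40.6% of their summed UMIs in the GNLY SH3RF3 cluster, 50.8% and 46.7% in CD4 SP-like nuclei and 56.6% and 60.3% in the HIVEP3 EGR3 signalled-like group, against 74.8% and 69.3% in DP-like nuclei. In the cycling cluster it took 85.4% and 82.9%. None of these 4 groups overlapped DP-like nuclei. CD3E took 32.0% and 37.0% in the GNLY SH3RF3 cluster and 6.42% and 4.61% in the cycling cluster, against 16.6% and 21.0% in DP-like nuclei. These shares depend on the length and capture of each gene, so only their change between groups is read, and it was not tested.

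CD28 did not follow the coreceptors. It was highest in the HIVEP3 EGR3 signalled-like group, at 1195 and 1156 CPM, and next in the NR4A3 SAMD11 signalled-like group, at 960.1 and 1003 CPM, against 881.5 and 517.2 CPM in DP-like nuclei. Both signalled-like groups lay above both DP-like libraries, but the log2 fold changes, 0.51 ± 0.25 and 0.22 ± 0.31, did not pass the test (adjusted p of 0.163 and 0.673). With no filter on low counts the HIVEP3 EGR3 signalled-like value was 0.60 with an adjusted p of 0.00312, and in the other tested alternatives the adjusted p was 0.0924 or more. CD4 SP-like nuclei had 913.7 and 835.8 CPM and γδ-like nuclei 499.6 and 507.5 CPM, neither called (adjusted p of 0.781 and 0.0605), although 3 alternatives called γδ-like nuclei lower (adjusted p of 0.00489 to 0.00754, and 0.0515 or more in the others). CD28 was lower in the GNLY SH3RF3 cluster, at 360.5 and 265.4 CPM (−1.47 ± 0.28, adjusted p = 5.39e-04), so this cluster and CD4 SP-like nuclei, alike in CD3E, did not overlap in CD28; the difference between them was not tested. It was also lower in the CLGN HMCN1 cluster, at 414.9 and 141.2 CPM (−1.58 ± 0.28), the CACNA1C AKR1D1 cluster, at 222.6 and 71.0 CPM (−2.67 ± 0.34), and the cycling cluster, at 532.0 and 392.0 CPM (−0.80 ± 0.26, adjusted p = 0.0266). The cycling call was lost in 3 alternatives, with adjusted p between 0.0610 and 0.145.

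The ratio of CD28 to CD247 UMIs also differed between groups, without a test. There were 178 and 138 CD28 UMIs per 100 CD247 UMIs in the HIVEP3 EGR3 signalled-like group, 275.0 and 292 in the NR4A3 SAMD11 signalled-like group and 130.1 and 129.0 in CD4 SP-like nuclei, against 46.0 and 24.8 in DP-like nuclei. The libraries disagreed on CD28 in some groups. After thinning it was found in 31.6% (27.2 to 36.4) of DP-like nuclei of replicate 1 and 19.3% (16.6 to 22.2) of replicate 2, and in 16.9% and 4.77% of the CLGN HMCN1 cluster, but in 40.6% and 39.7% of the HIVEP3 EGR3 signalled-like group. B-like nuclei had CD28 in 7 of 54 and 1 of 52. In DP-like nuclei the CD28 shares were 33.4% and 20.8% unthinned, so the libraries stood as far apart at equal depth, and the deeper library was the lower one. Whether they differ in bird or in preparation is not known from the labels, and the part of either was not tested.

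**Figure D4:**
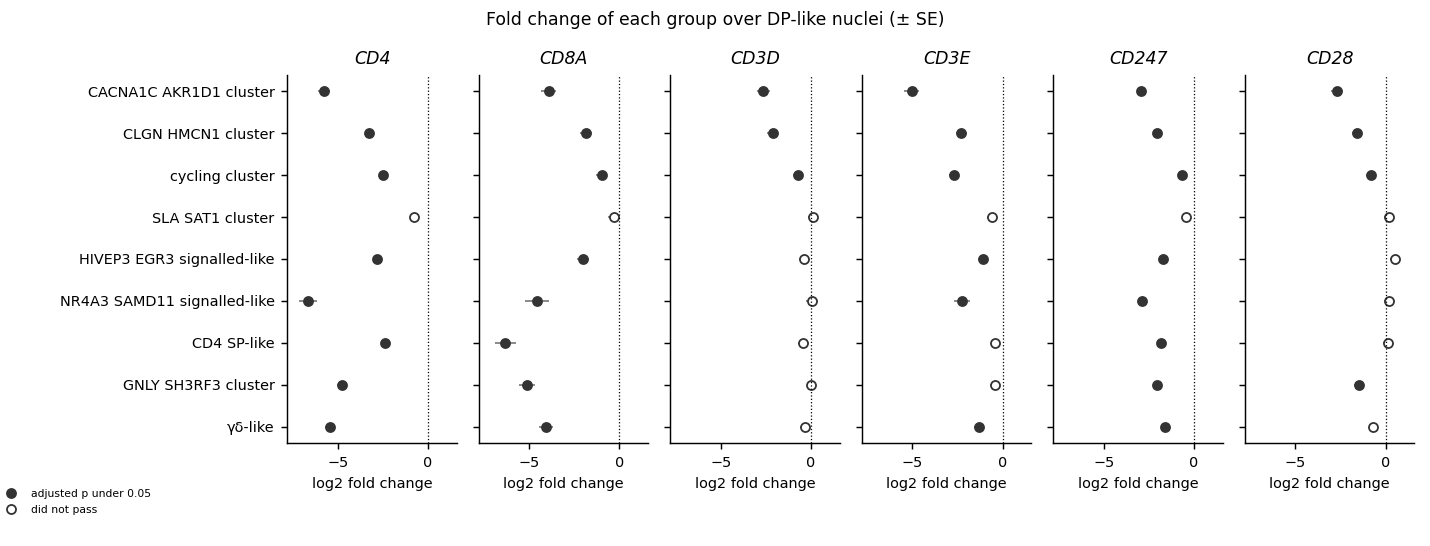
Log2 fold change of each of 9 T-lineage groups over DP-like nuclei for the 6 genes, with SE bars; filled points passed an adjusted p of 0.05 in edgeR's test and open points did not. Filled points lie left of 0 throughout; CD3D and CD28 have most of the open points, and the points of CD4 in the NR4A3 SAMD11 signalled-like group (2 UMIs) and of CD8A there and in CD4 SP-like nuclei (4 UMIs each) rest on few UMIs.

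After thinning, a DP-like nucleus held a median of 2 of the 6 genes in each library, 21.2% and 19.4% held 3 or more, and 0 nuclei of any group held all 6. At least 3 genes were found in 5.18% and 4.74% of the nuclei of the cycling cluster and in 0.0% and 0.521% of the CACNA1C AKR1D1 cluster. CD4 with CD247 was found in 17.5% and 21.7% of DP-like nuclei, and CD247 with CD28 in 15.6% and 8.19%. At 500 UMIs 3 of the 15 pairs had an odds ratio above 1 in both libraries within DP-like nuclei: CD4 with CD8A, CD4 with CD3D (1.39 and 1.41) and CD8A with CD28 (1.65 and 1.02). CD8A with CD247 was below 1 in both (0.825 and 0.942), and the other 11 pairs changed side between libraries. No such count was made over pairs of other genes, so these values are descriptions. Unthinned, 10 of the 15 pairs were above 1 in both libraries and 0 below, among them CD4 with CD247 (1.49 and 1.31), and CD8A with CD247 was at 0.759 and 1.13. So these counts changed with thinning, which lowered the depth and also left out the shallow nuclei. The part of each was not tested. In the cycling cluster 7 of 10 pairs with at least 5 nuclei from the product of their shares were above 1 in both libraries after thinning and 0 below, and unthinned 10 of 13 and 0. CD3D and CD3E, neighbours on chromosome 24, were found together in 3 DP-like nuclei of replicate 1 and 17 of replicate 2, against 5.43 and 14.9 from the product of their shares. In all T-lineage nuclei 14 of 15 pairs were above 1 in both libraries, the exception being CD8A with CD28 (1.42 and 0.934), and unthinned 12 of 15. Pooled counts of this kind mix groups of unlike levels, and the part of that mixing was not tested.

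Over the 10 groups the levels of CD4 and CD247 moved together most among the 15 pairs in both libraries, with Pearson correlations of log2(CPM + 10) of 0.842 and 0.849, and CD3D and CD3E had 0.801 and 0.724. CD4 and CD8A had 0.755 and 0.609, and CD8A with CD3D −0.06 and 0.09. These are descriptions over 10 groups that share libraries. Among 5201 genes with a symbol and at least 200 UMIs, the genes most like each of the 6 by the same measure, averaged over the libraries, were SCAI (0.944) and PHACTR4 (0.931) for CD4, IGF1R (0.954) and ANKRD11 (0.945) for CD8A, PTPRC (0.913) and ZC3HAV1 (0.905) for CD3D, SEPTIN9 (0.956) and SESN3 (0.948) for CD3E, GRAP2 (0.938) and ETS1 (0.930) for CD247, and NCALD (0.948) and MAP2K4 (0.905) for CD28. RAG1 was the fourth for CD8A (0.936).

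**Figure D5:**
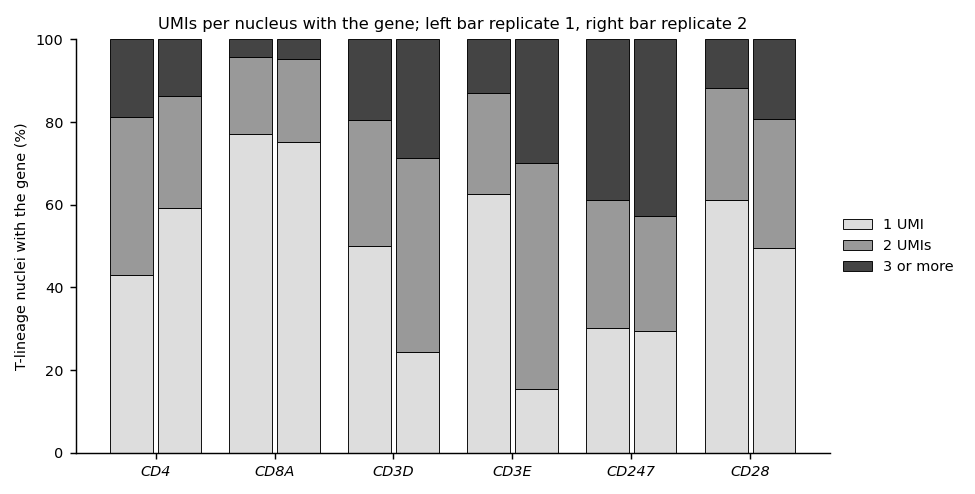
Among T-lineage nuclei with at least 1 UMI of a gene, the percent with 1, 2 or at least 3 UMIs, for replicate 1 (left bar) and replicate 2 (right bar). For CD3E 62.5% of such nuclei have a single UMI in replicate 1 and 15.4% in replicate 2, while CD8A has 77.1% and 75.3%.

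The number of UMIs per nucleus differed between genes and, for some, between libraries. Of T-lineage nuclei with CD8A, 77.1% and 75.3% had a single UMI, close to the median of 81.5% and 80.2% over genes found in 5 to 50% of T-lineage nuclei. For CD3E the single-UMI share was 62.5% in replicate 1 but 15.4% in replicate 2, where 108 nuclei had 1 UMI and 384 had 2. CD3D showed 50.1% and 24.3%, CD4 43.0% and 59.3%, CD28 61.3% and 49.4% and CD247 30.1% and 29.4%. More nuclei with 2 UMIs than with 1 were found for 4.62% and 4.81% of those genes. For CD247 single UMIs also differed between groups. They were found in 140 of 353 and 212 of 595 DP-like nuclei with the gene, and in 57 of 101 and 60 of 124 in the CLGN HMCN1 cluster. The counts were 4 of 75 and 4 of 90 in the GNLY SH3RF3 cluster and 0 of 33 and 3 of 50 in CD4 SP-like nuclei. In the CACNA1C AKR1D1 cluster they were 1 of 21 and 2 of 35. Whether this bears on the lower CD247 levels of these groups was not tested. The matrices carry the name of a correction for free RNA, which removes UMIs nucleus by nucleus, and its part in these shares was not tested. When single UMIs of the 6 genes were set to 0, an alternative added after seeing the data, 34 of the 54 values were called lower than in DP-like nuclei and 0 higher. Counts of all other genes were left as they were, so the calls over all genes could hardly move. For the cycling cluster 598 of 6945 were lower, against 602 in the main test.

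Genes that work with the receptor were described from 3 lists, chosen with earlier results of these data known. In T-lineage nuclei against the other classes 11 of 15 signalling genes tested, 4 of 5 receptor partners and costimulatory genes and 14 of 18 lineage factors rose and 0 fell. Beside these, 15% of all genes tested were higher. Against DP-like nuclei, the 9 groups had 0 to 11 of 22 signalling genes, 0 to 8 of 11 partners and 1 to 8 of 20 factors higher, beside 0.0288% to 20.4% of all genes, and 0 to 9, 0 to 6 and 0 to 10 lower, beside 0.0% to 12.8%. Of 22 genes of proximal T cell receptor signalling tested, 10 rose and 6 fell in the GNLY SH3RF3 cluster, where 18.2% of all genes rose and 10.7% fell (median log2 fold change 0.68, against 0.15 over all genes). In the cycling cluster 4 rose and 9 fell, where 18% of all genes rose and 8.67% fell (−0.79, against 0.10). The adaptor GRAP2, whose levels were most like those of CD247, was at 415.6 ± 20.5 CPM in the GNLY SH3RF3 cluster, against 3742 ± 83.0 CPM in DP-like nuclei (SD, n = 2; adjusted p = 9.56e-12). TRAT1, an adaptor that binds the receptor complex, was at 119.9 ± 16.6 CPM there, against 1309 ± 139.0 CPM in DP-like nuclei. PAG1, an adaptor that recruits the inhibitory kinase CSK, was higher in the γδ-like nuclei, at 913.3 ± 95.8 CPM, against 6.69 ± 0.106 CPM in DP-like nuclei (adjusted p = 7.87e-09). The DP-like value lay near the floor of 3 counts, 6.76 and 3.97 CPM. PAG1 was also called higher in the GNLY SH3RF3 cluster (mean 577.8 CPM), the NR4A3 SAMD11 (158.9) and HIVEP3 EGR3 (149.7) signalled-like groups and CD4 SP-like nuclei (106.0). The same held for the CACNA1C AKR1D1 (84.3) and cycling (33.4) clusters.

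Of 11 receptor partners and costimulatory genes tested, 8 rose and 2 fell in the HIVEP3 EGR3 signalled-like group, where CD28 was highest, with a median log2 fold change of 3.79 against 0.13 over all genes, of which 14.0% rose and 8.16% fell. TNFRSF9, a costimulatory receptor of activated T cells, was at 166.9 ± 9.05 CPM in that group and at 0 UMIs in DP-like nuclei; it belongs to the list that named the signalled-like groups. CD8BP also fell in groups where CD8A was low. It was at 16.3 ± 19.3 CPM in the GNLY SH3RF3 cluster, 27.9 ± 39.4 CPM in CD4 SP-like nuclei and 76.2 ± 20.3 CPM in γδ-like nuclei, against 851.7 ± 381.8 CPM in DP-like nuclei (adjusted p of 2.05e-07, 3.63e-06 and 3.48e-06). Of 20 factors linked to the choice between CD4 and CD8, 7 rose and 5 fell in CD4 SP-like nuclei, where 14.8% of all genes rose and 9.09% fell (median −0.16, against 0.07 over all genes). TOX, needed for CD4 T cell development in mice, was at 1587 ± 106.4 CPM in CD4 SP-like nuclei, against 24.0 ± 17.1 CPM in DP-like nuclei. TOX was also high in groups without that name, with means of 1665 CPM in the HIVEP3 EGR3 and 1452 CPM in the NR4A3 SAMD11 signalled-like group, 1460 CPM in the GNLY SH3RF3 cluster and 1426 CPM in γδ-like nuclei. ZBTB7B, which directs CD4 lineage choice in mice, was at 5.71 and 38.3 CPM in CD4 SP-like nuclei and at 0 UMIs in DP-like nuclei (adjusted p = 0.0463); it belongs to the list that named the CD4 SP-like nuclei.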

How the data were processed

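For each of the 2 libraries the authors deposited UMI counts, whole numbers per gene and barcode. The counts came from Cell Ranger 7.0.1 on GRCg7b, per the submitters' processing notes. The matrices' names refer to CellBender, which subtracts free RNA and so lowers counts nucleus by nucleus; neither its version nor its settings are known from these sources. Libraries held 4826743 and 6570941 UMIs over 6564 and 6050 barcodes.

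Nuclei needed at least 200 genes and at most 5% mitochondrial UMIs, and the 6% of nuclei with the highest simulated-doublet scores were removed. Leiden clustering (2000 variable genes, 30 components, 15 neighbours, resolution 1, leidenalg 0.10.2) left out the 6 genes and the pathway lists, and names came from at least 3 markers of a list. Of 22 marker lists, those not named in the report named no class or stage. A mixed cluster of 118 nuclei, which met the dendritic and the thrombocyte list alike, stayed unnamed and out of the class test. UMIs were summed per library and group of at least 20 nuclei in each library and tested with edgeR 4.0.16 in R 4.3.3 (TMM, filterByExpr, glmQLFit, two-sided, Benjamini-Hochberg), all groups fitted together with the library as a block, since the groups of 1 library share its sample. Correlations of the library differences of the groups were positive in all 45 pairs of clusters, but low (lowest 0.0468, median 0.242). Clustering features were not tested, but genes that vary with them were, so p-values are not independent of the clusters. Detection used nuclei thinned to 500 UMIs, exact (Clopper-Pearson) 95% intervals and a floor of 3 counts; odds ratios had 0.5 added to each cell. Gene positions came from RefSeq, matched by symbol. Scripts were checked on simulated counts. DESeq2 1.42.0, other filters, resolutions and depths were tried as alternatives.

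The members and lists were chosen with earlier results of these data known. All 6 genes are given in every comparison. From each pathway list the rule allowed up to 4 genes per comparison (the 2 highest and the 2 lowest fold changes that passed), of which some are given, and the 5 most similar genes per member, of which the first 2 and RAG1 are given.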

Additional observations from a re-analysis of the deposited data

How the results depend on the processing

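Without the replicate block, that is without the library term, all 6 genes stayed higher in the T lineage and 34 values were called lower than in DP-like nuclei, against 37 with it, and 0 higher. Over the other tested alternatives, all 6 genes were called higher in the T lineage except with DESeq2 (5) and with single UMIs set to 0 (4, CD8A and CD3E not being tested), and 29 to 38 values were called lower than in DP-like nuclei. These counts rest on 6 to 9 groups. All genes called lower varied too, for the cycling cluster from 300 of 19563 (no filter) to 622 of 5201 (split UMIs), against 602 of 6945 in the main test. Without the block it was 417 of 6945. With resolution 0.5, resolution 1.5, UMIs split between clustering and testing or at least 400 genes per nucleus, 6, 8, 7 and 8 of the 9 groups were found. The CD4 SP-like group was missing at resolution 0.5 and with split UMIs. The NR4A3 SAMD11 signalled-like group was missing at both resolutions and with split UMIs. The SLA SAT1 cluster was missing at resolution 0.5 and with at least 400 genes. The values of these groups could not be checked in those settings. With no filter on low counts 1 value was called higher, that of CD28 in the HIVEP3 EGR3 signalled-like group, beside 1074 of 19563 genes there. DESeq2's scaling moved the median of all genes by −0.23 (T lineage) to 0.24 (NR4A3 SAMD11 signalled-like group), and turned no direction of the 6 genes. No called value reversed. Values that were not called and turned sign were those of CD3D in the NR4A3 SAMD11 signalled-like group (−0.0042 with no filter; −0.41 with doublets kept; −0.29 with 400 genes), in the HIVEP3 EGR3 group (0.12 without replicate 2, −0.35 without replicate 1; 0.0053 with single UMIs set to 0), in the SLA SAT1 cluster (−0.032 with doublets kept; −0.19 with split UMIs), in γδ-like nuclei (0.022 without replicate 2, −0.17 without replicate 1), in CD4 SP-like nuclei (0.28 without replicate 2, −0.57 without replicate 1) and in the GNLY SH3RF3 cluster (−0.042 with doublets kept; −0.31 with split UMIs; −0.010 at resolution 0.5). So did CD8A (0.039 with doublets kept) and CD28 (−0.23 with split UMIs; −0.16 with single UMIs set to 0) in the SLA SAT1 cluster. The causes were not tested.

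Shares of DP-like nuclei depend on depth by construction, and each depth also left out the nuclei with fewer UMIs. The part of each was not tested. Thinned to 300 UMIs they were 28.4% for CD4, 16.0% for CD8A, 5.99% for CD3D, 11.8% for CD3E, 34.8% for CD247, 15.5% for CD28 and 5.18% for CD4 with CD8A. Thinned to 1000 UMIs they were 54.2% for CD4, 31.9% for CD8A, 13.6% for CD3D, 33.9% for CD3E, 55.7% for CD247 and 17.3% for CD4 with CD8A, whose odds ratio was 1.08. The CD4 share was 38.7% with doublets kept, 41.7% with 12% removed, 36.3% at resolution 0.5 and 40.02% at resolution 1.5, and the share with CD4 and CD8A was 9.55% at resolution 0.5. Leaving out 1 library at a time gave odds ratios of 1.16 to 1.38, shares with both of 9.95% to 11.7%, and shares of 39.90% to 39.92% for CD4, 23.3% to 25.5% for CD8A, 8.76% to 10.1% for CD3D, 15.1% to 18.6% for CD3E, 44.5% to 50.9% for CD247 and 19.3% to 31.6% for CD28, where 1 library decides the value.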
